A study of Mus musculus with 6 samples.

Results

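The cell cycle genes described here are 45 genes of DNA replication and mitosis, taken by gene symbol from an expression table of mouse dendritic cells with 21914 symbols. All 45 were in the table. They were split by function into 18 genes of DNA replication and the G1/S step and 27 genes of mitosis and the G2/M step. The genes were chosen with earlier results of these data known. Of the 45, 44 reached 1 FPKM (sequenced fragments per gene, scaled for the gene's length and the library's size) in at least 2 of 6 libraries, as did 10818 genes in all. Cenpf, a large kinetochore protein, did not. The dendritic cells, which present antigen to T cells, were sorted by flow cytometry from germ-free C57BL/6 mice with a knocked-out Rag gene, and each tissue gave 3 libraries. The mice had received naive CD4 T cells or regulatory T cells (Treg) 1 week before, or were left un-injected, and each state gave 1 library of peripheral lymph node cells and 1 library of spleen cells. All 6 groups share the germ-free state and the Rag knockout, so the hosts make no T or B lymphocytes of their own, and those present after a transfer come from the injected cells. The sources used here do not give which Rag gene was deleted, the sort gate, the age and number of mice behind a library, or whether tissues share animals.

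A cell that divides first copies its DNA and then pulls the copies apart. In resting cells retinoblastoma family proteins hold back the E2F factors; once cyclin-dependent kinases release E2F, genes for the replication machinery and for nucleotide supply are transcribed, and later, through CCAAT boxes and the element called CHR (cell cycle genes homology region), those for the mitotic kinases, spindle and kinetochore. Dendritic cells of spleen and lymph node come from bone marrow precursors that still divide after they reach the tissue, whereas dendritic cells that migrate from skin to a lymph node arrive mature.

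Each group is 1 library, so a level within a group has no error, and the depth of the libraries is unknown. Tests across libraries came from limma, in a model of transfer state plus tissue fitted over all 10818 genes. Its p-values measure how alike the states or tissues responded and not the spread between mice. Itgax, the CD11c chain that marks dendritic cells, stood at 39.7 to 196 FPKM in lymph node and at 305 to 385 FPKM in spleen. Markers of other cells and of other dendritic cell states differed between libraries. The 5 migratory markers summed to 2358 (naive), 5010 (Treg) and 13351 FPKM (un-injected) in lymph node, against 409 to 727 FPKM in spleen. The 10 neutrophil markers summed to 841 FPKM in the un-injected spleen library and to between 2.91 and 24.0 FPKM in the other 5 libraries. Ly6c2, a monocyte and precursor marker, had 1119 FPKM in the naive lymph node library and 7.51 to 59.9 FPKM in the others. The summed markers of erythroid precursors, which divide, lay apart between tissues like most of the cell cycle genes. All 10 were in the table, and they summed to 60.6 (naive), 35.1 (Treg) and 49.6 FPKM (un-injected) in lymph node, against 133 (naive), 393 (Treg) and 582 FPKM (un-injected) in spleen. Of these 10, 4 or 5 were listed at 0 in each lymph node library and 2 in each spleen library, and Klf1, which defines the lineage, was at 0 outside the naive spleen library (1.14 FPKM). Most of each spleen sum was Hbb-bs (76.8 to 394 FPKM) and Hba-a1 (28.4 to 146 FPKM). Car2 did not separate the tissues, with 24.8 (naive), 6.67 (Treg) and 8.37 FPKM (un-injected) in lymph node, against 2.99 to 9.46 FPKM in spleen. Epor and Ermap did not either. Kit, a receptor of progenitors, separated the tissues. It had 26.7 (naive), 27.0 (Treg) and 6.52 FPKM (un-injected) in lymph node, against 75.1 (naive), 70.8 (Treg) and 46.6 FPKM (un-injected) in spleen. Of the other precursor markers listed with it, Cd34 separated the tissues, and Cd93, Mpo, Siglech and Ly6c2 overlapped. The 6 precursor markers summed to 1156 FPKM in the naive lymph node library, mostly Ly6c2, against 90.04 to 134 FPKM in spleen. The part of such cells in the differences between tissues was not tested. Of 14 T cell markers 11 were in the table and summed to 11.6 to 18.4 FPKM in lymph node, against 27.7 to 53.7 FPKM in spleen; most of the spleen sum was Cd4 (19.6 to 47.6 FPKM), which mouse spleen dendritic cells carry themselves, and Cd3e was listed at 0 outside the un-injected lymph node library (0.584 FPKM). Of 13 mitochondrial genes 11 were listed at 0 throughout, so a gene listed at 0 may simply lack an estimate; counts and medians of ratios that hold such genes are also given without them.

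The cell cycle genes were lower in lymph node than in spleen dendritic cells, in both classes and whether or not T cells had been given, without any of them passing the adjusted test. The model difference between lymph node and spleen was below 0 for all 44 members tested, against 49.7% of all genes, with a median of -1.04 over the replication members, -1.56 over the mitosis members and 0.01 over all genes on the log2(FPKM + 1) scale. None of the 44 had an adjusted p-value of 0.05 or less in limma, while 74 of all genes did (0.684%), and the lowest adjusted p-value of a member was 0.0667. At an unadjusted p-value of 0.05 or less 31 members were lower in lymph node, 11 of 18 in replication and 20 of 26 in mitosis, where 12.1% of all genes were. All 3 lymph node libraries lay below all 3 spleen libraries for 33 of the 44 members (34 of all 45), against 16.4% of all genes. Among genes that reached 1 FPKM in a library of each tissue it was 31 of 41 members, against 16.1%. Of the 44, 3 (Ccnb1, Ttk and Hmmr) had passed the filter through spleen alone. With 1 library left out at a time the first count was 33 to 38, against 19.6% to 27.0% of all genes, the share being highest without the naive lymph node library (36 members); the count at an unadjusted p-value of 0.05 or less was 28 to 30, against 5.65% to 16.0% of all genes. Leaving out the naive library of lymph node put 9 members past the adjusted threshold, along with 13.6% of all genes, and leaving out that of spleen put 8 past it, along with 13.4% of all genes. Kif23 alone passed without either un-injected library (2.81% of all genes for that of lymph node, 2.45% for that of spleen). In bulk libraries such as these, fewer dividing cells and less of these RNAs per cell cannot be told apart.

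**Figure D1:**
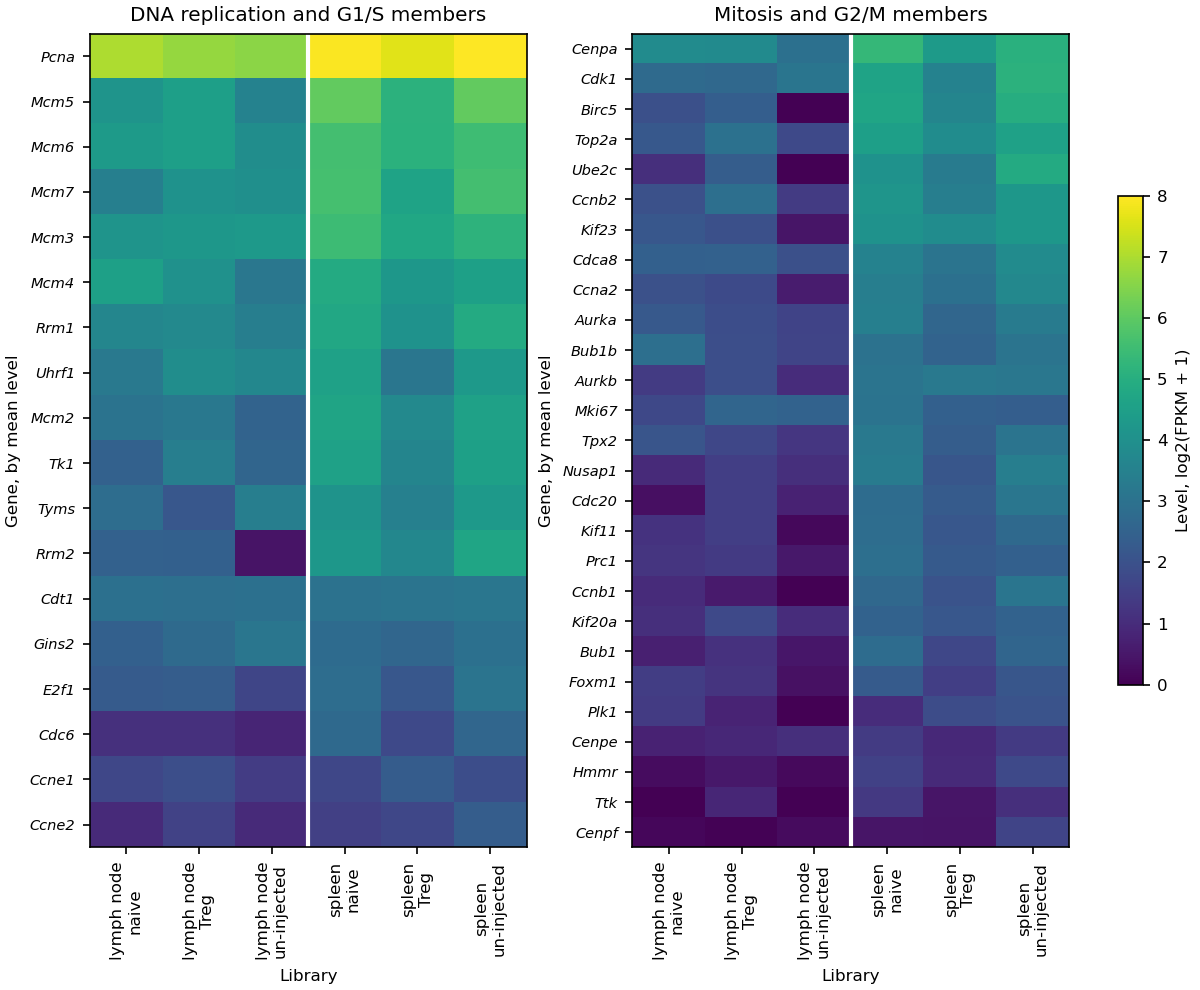
Level of each of the 45 cell cycle genes in each of the 6 libraries, as colour on the log2(FPKM + 1) scale, with replication and G1/S genes in the left panel and mitosis and G2/M genes in the right panel, rows ordered by mean level and columns by tissue (a white line parts lymph node from spleen) and transfer state. The spleen columns are brighter for most rows, the un-injected lymph node column is the darkest, alone or tied, for 32 of 45 genes, and the Treg column is the darkest of the 3 spleen columns for most of them.

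Of the replication genes, the MCM helicase, which opens the DNA at replication forks, was measured by all 6 of its subunits among the members. Mcm5 had 16.6 (naive), 21.9 (Treg) and 10.7 FPKM (un-injected) in lymph node, against 66.0 (naive), 34.0 (Treg) and 66.5 FPKM (un-injected) in spleen. Mcm7 had 9.84 (naive), 15.8 (Treg) and 14.9 FPKM (un-injected) in lymph node, against 48.5 (naive), 24.1 (Treg) and 48.3 FPKM (un-injected) in spleen. Mcm2 had 7.25 (naive), 8.27 (Treg) and 4.78 FPKM (un-injected) in lymph node, against 24.2 (naive), 12.6 (Treg) and 22.9 FPKM (un-injected) in spleen. For these 3 subunits every lymph node library lay below every spleen library, and in spleen the Treg library was the lowest. Mcm6 had 19.6 (naive), 21.9 (Treg) and 14.01 FPKM (un-injected) in lymph node, against 48.1 (naive), 33.6 (Treg) and 44.6 FPKM (un-injected) in spleen. Mcm3 had 16.6 (naive), 18.01 (Treg) and 19.1 FPKM (un-injected) in lymph node, against 43.7 (naive), 26.0 (Treg) and 35.4 FPKM (un-injected) in spleen. Both also kept the tissues apart, with smaller model differences. Mcm4 was the exception among the subunits, with 22.4 (naive), 15.6 (Treg) and 8.10 FPKM (un-injected) in lymph node, against 28.7 (naive), 17.9 (Treg) and 22.4 FPKM (un-injected) in spleen. The naive lymph node library thus reached the level of the un-injected spleen library, and the tissues overlapped. The model difference between lymph node and spleen was -1.69 ± 0.41 for Mcm5 (SE of the model, 3 libraries against 3), -1.47 ± 0.36 for Mcm7, -1.40 ± 0.35 for Mcm2, -1.15 ± 0.29 for Mcm6, -0.90 ± 0.27 for Mcm3 and -0.63 ± 0.32 for Mcm4, with adjusted p-values in limma of 0.0971 to 0.276. Reads of Mcm7 share a locus line in the table with 3 other genes, so its level is less certain.

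Pcna, the sliding clamp that holds DNA polymerase on its template, was the highest member in every library. Pcna had 127 (naive), 105 (Treg) and 96.5 FPKM (un-injected) in lymph node, against 244 (naive), 197 (Treg) and 273 FPKM (un-injected) in spleen. Its groups did not overlap, and the difference was -1.11 ± 0.23 (SE, adjusted p in limma 0.0811). The genes that load or steer the helicase were lower and more mixed. Cdc6 (a loader of the helicase) had 1.18 (naive), 1.17 (Treg) and 0.759 FPKM (un-injected) in lymph node, against 5.65 (naive), 2.39 (Treg) and 5.22 FPKM (un-injected) in spleen. Cdt1 (its partner in loading) had 6.74 (naive), 6.55 (Treg) and 6.78 FPKM (un-injected) in lymph node, against 7.05 (naive), 7.45 (Treg) and 7.89 FPKM (un-injected) in spleen. Gins2 (part of the active helicase) had 4.504 (naive), 5.85 (Treg) and 7.73 FPKM (un-injected) in lymph node, against 5.95 (naive), 5.20 (Treg) and 6.78 FPKM (un-injected) in spleen. Cdc6 kept the tissues apart, while Cdt1 was nearly level across the 6 libraries and Gins2 was the only member whose highest value lay in a lymph node library, the un-injected one. Cdt1 and Gins2 sit on a locus line that the table shares with 73 other genes each, so how their reads were assigned is uncertain. Uhrf1 (which carries DNA methylation over to the new strand) had 8.32 (naive), 14.04 (Treg) and 11.9 FPKM (un-injected) in lymph node, against 22.8 (naive), 7.89 (Treg) and 18.5 FPKM (un-injected) in spleen. Its Treg spleen library was the lowest of the 6, so the tissues overlapped, with a difference of -0.40 ± 0.44 (SE).

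Genes of nucleotide supply were lower in lymph node in all 4 cases. Rrm2 (the regulated subunit of ribonucleotide reductase, which makes deoxynucleotides) had 4.58 (naive), 4.52 (Treg) and 0.343 FPKM (un-injected) in lymph node, against 17.96 (naive), 12.1 (Treg) and 24.9 FPKM (un-injected) in spleen. Rrm1 (its large subunit) had 11.8 (naive), 12.7 (Treg) and 9.71 FPKM (un-injected) in lymph node, against 27.1 (naive), 15.8 (Treg) and 28.4 FPKM (un-injected) in spleen. Rrm2 differed more between the tissues than any other replication member, -2.43 ± 0.61 (SE, adjusted p in limma 0.102), and its un-injected lymph node value was far below those of the other 5 libraries. Tk1 (thymidine kinase) had 4.61 (naive), 9.80 (Treg) and 5.16 FPKM (un-injected) in lymph node, against 23.1 (naive), 11.3 (Treg) and 22.5 FPKM (un-injected) in spleen. Tyms (thymidylate synthase) had 6.29 (naive), 3.51 (Treg) and 9.83 FPKM (un-injected) in lymph node, against 16.2 (naive), 10.3 (Treg) and 19.0 FPKM (un-injected) in spleen. The difference was -1.41 ± 0.44 for Tk1, whose line is shared with 3 other genes, and -1.15 ± 0.25 for Tyms (SE). Among lymph node libraries Tyms was highest in the un-injected one, unlike Rrm2. The cyclins and the factor of the G1/S step were low and overlapped between tissues. E2f1 had 3.87 (naive), 4.08 (Treg) and 2.19 FPKM (un-injected) in lymph node, against 6.29 (naive), 3.47 (Treg) and 7.43 FPKM (un-injected) in spleen. Ccne1, a partner of CDK2, lay between 1.66 and 2.80 FPKM in lymph node, against 2.24 to 4.04 FPKM in spleen. Ccne2 lay between 0.917 and 1.99 FPKM in lymph node, against 1.84 to 4.08 FPKM in spleen, and its line is shared with 1 other gene.

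The mitosis genes were lower in level than the replication genes and had the larger median gap between the tissues. Their median level was 1.62 (naive), 2.43 (Treg) and 0.696 FPKM (un-injected) in lymph node, against 7.21 (naive), 4.18 (Treg) and 7.58 FPKM (un-injected) in spleen; for the replication genes it was 6.998 (naive), 9.04 (Treg) and 7.92 FPKM (un-injected) in lymph node, against 22.9 (naive), 11.7 (Treg) and 22.4 FPKM (un-injected) in spleen. For every 100 FPKM summed over the replication genes, the mitosis genes summed to 25.1 (naive), 29.8 (Treg) and 17.3 FPKM (un-injected) in lymph node, against 42.9 (naive), 37.4 (Treg) and 46.3 FPKM (un-injected) in spleen. With medians in place of sums it was 23.2 (naive), 26.9 (Treg) and 8.79 (un-injected) in lymph node. In spleen it was 31.4 (naive), 35.7 (Treg) and 33.8 (un-injected), so the order of the spleen libraries depends on the measure. The un-injected lymph node library listed 5 mitosis genes at 0 (Ccnb1, Plk1, Birc5, Ttk and Ube2c) and the naive one listed Ttk at 0.

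Among the cyclins, their kinase and the anaphase-promoting complex, Cdk1 (the kinase that drives mitosis) had 5.73 (naive), 5.57 (Treg) and 7.65 FPKM (un-injected) in lymph node, against 24.2 (naive), 10.6 (Treg) and 34.6 FPKM (un-injected) in spleen. Ccnb2 (a B-type cyclin that activates it) had 2.99 (naive), 6.62 (Treg) and 1.62 FPKM (un-injected) in lymph node, against 17.2 (naive), 9.83 (Treg) and 17.8 FPKM (un-injected) in spleen. Ube2c (the ubiquitin-conjugating enzyme of the anaphase-promoting complex) had 1.11 (naive), 4.10 (Treg) and 0 FPKM (un-injected) in lymph node, against 15.9 (naive), 9.06 (Treg) and 28.6 FPKM (un-injected) in spleen. All 3 kept the tissues apart. Ube2c had the widest span, which includes the un-injected lymph node library, where it is listed at 0. Their differences were -1.59 ± 0.33 (Cdk1), -1.85 ± 0.48 (Ccnb2) and -2.95 ± 0.72 (Ube2c; SE), with adjusted p-values in limma of 0.0811, 0.108 and 0.0983. Ccna2, the cyclin of S phase and early mitosis, lay between 0.528 and 2.98 FPKM in lymph node, against 6.77 to 12.4 FPKM in spleen. Ccnb1, the other B-type cyclin, reached at most 0.972 FPKM in lymph node, against 3.17 to 7.58 FPKM in spleen. Cdc20, the activator of the complex, reached at most 1.80 FPKM in lymph node, against 3.93 to 7.91 FPKM in spleen. None of the 3 overlapped between tissues, and Foxm1, the transcription factor of the mitotic program, did not either, with 0.285 to 1.71 FPKM in lymph node and 1.77 to 3.95 FPKM in spleen. The table shares the lines of Ccna2, Cdc20 and Ube2c with 1 other gene each and that of Foxm1 with 4.

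Kinases and checkpoint proteins followed, with more exceptions. Birc5 (survivin, part of the chromosomal passenger complex) had 2.83 (naive), 4.205 (Treg) and 0 FPKM (un-injected) in lymph node, against 25.2 (naive), 11.4 (Treg) and 30.8 FPKM (un-injected) in spleen. Aurkb (the kinase of that complex) had 1.60 (naive), 2.82 (Treg) and 1.01 FPKM (un-injected) in lymph node, against 7.45 (naive), 8.37 (Treg) and 8.07 FPKM (un-injected) in spleen. Birc5 had the largest tissue difference of all members, -3.01 ± 0.70 (SE, adjusted p in limma 0.0928), or -2.01 if the un-injected lymph node library, which lists it at 0, is left out, and Aurkb one of the 2 lowest adjusted p-values, -1.72 ± 0.30 (SE, adjusted p in limma 0.0667). In spleen Aurkb was not lower in the Treg library than in the others. Bub1 (a spindle checkpoint kinase) had 0.637 (naive), 1.20 (Treg) and 0.403 FPKM (un-injected) in lymph node, against 6.11 (naive), 2.27 (Treg) and 5.13 FPKM (un-injected) in spleen. Bub1b (its relative BubR1) had 6.58 (naive), 2.78 (Treg) and 2.11 FPKM (un-injected) in lymph node, against 7.11 (naive), 4.87 (Treg) and 7.37 FPKM (un-injected) in spleen. For Bub1 the tissues stood apart, whereas the naive lymph node library brought Bub1b to the range of spleen. Cdca8, a further passenger protein, and Aurka, the spindle pole kinase, kept the tissues apart at 2.86 to 4.56 and 2.06 to 3.70 FPKM in lymph node, against 7.42 to 13.5 and 5.24 to 9.88 FPKM in spleen. Plk1, the polo kinase, overlapped, with 1.62 (naive), 0.747 (Treg) and 0 FPKM (un-injected) in lymph node, against 1.03 (naive), 2.62 (Treg) and 3.159 FPKM (un-injected) in spleen, as did Ttk, a checkpoint kinase that stayed at or below 1.53 FPKM throughout.

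Of the spindle genes, Kif23 (a kinesin of the midzone and of cell separation) had 3.47 (naive), 2.83 (Treg) and 0.357 FPKM (un-injected) in lymph node, against 16.0 (naive), 13.8 (Treg) and 17.7 FPKM (un-injected) in spleen. Its difference was -2.55 ± 0.44 (SE, adjusted p in limma 0.0668). Nusap1 (a spindle-binding protein) had 0.943 (naive), 1.78 (Treg) and 1.12 FPKM (un-injected) in lymph node, against 8.98 (naive), 3.42 (Treg) and 9.61 FPKM (un-injected) in spleen. Kif11, Kif20a, Prc1, Tpx2 and Hmmr, which build, bundle or bind spindle microtubules, also had all lymph node values below all spleen values. Kif11, for example, lay between 0.138 and 1.82 FPKM in lymph node, against 3.46 to 6.29 FPKM in spleen. The lines of Nusap1, Kif20a and Prc1 are each shared with 1 other gene. Among genes of the centromere and chromosomes, Cenpa (the histone variant that marks centromeres) had 13.5 (naive), 13.1 (Treg) and 6.82 FPKM (un-injected) in lymph node, against 38.7 (naive), 19.4 (Treg) and 32.8 FPKM (un-injected) in spleen. Top2a (topoisomerase, which untangles the copies) had 3.61 (naive), 6.93 (Treg) and 2.38 FPKM (un-injected) in lymph node, against 22.1 (naive), 13.9 (Treg) and 22.8 FPKM (un-injected) in spleen. These 2 were well expressed and separated the tissues, with differences of -1.37 ± 0.36 (Cenpa) and -2.01 ± 0.42 (Top2a; SE), while Cenpe, a kinetochore motor, overlapped between 0.712 and 1.61 FPKM. Cenpf stayed between 0.0333 and 0.362 FPKM except in the un-injected spleen library (2.13 FPKM). Mki67 (which codes for the proliferation marker Ki-67) had 2.31 (naive), 5.12 (Treg) and 4.68 FPKM (un-injected) in lymph node, against 7.21 (naive), 4.48 (Treg) and 4.29 FPKM (un-injected) in spleen. It did not follow the other mitosis genes: the Treg and un-injected lymph node libraries lay above the Treg and un-injected spleen libraries, and the difference over all libraries was -0.35 ± 0.38 (SE, adjusted p in limma 0.596).

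**Figure D2:**
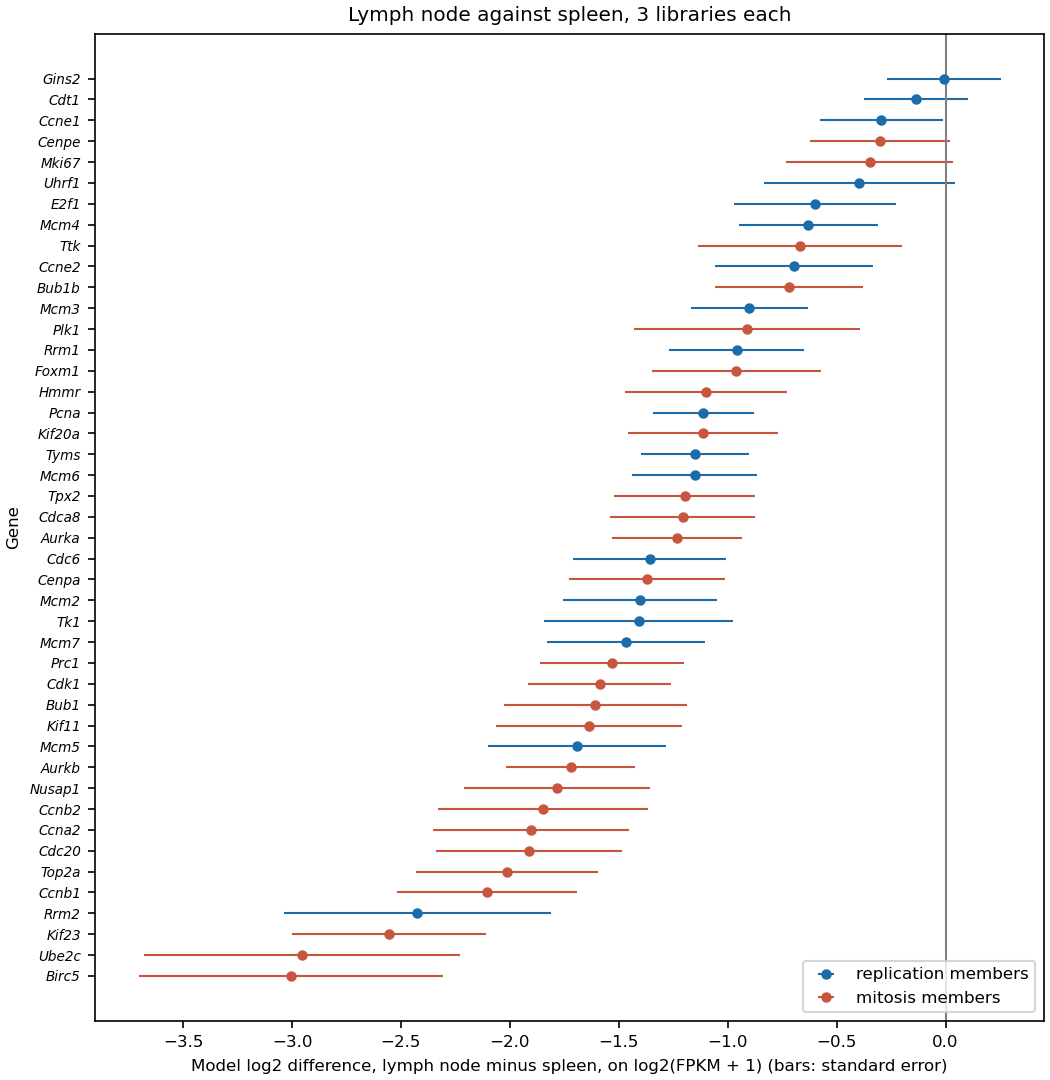
Model difference between lymph node and spleen for the 44 members past the filter, on the log2(FPKM + 1) scale (horizontal axis, points; bars are the standard error of the model over 6 libraries), 1 row per gene, with replication and mitosis genes in separate colours. Every point lies below 0, between -3.01 (Birc5) and -0.01 (Gins2), and mitosis genes hold most of the far end.

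The 2 classes differed in the motifs of their promoters, given here as a description beside the levels. Promoter windows of RefSeq (GRCm38.p6), which run from 250 bases before to 50 bases after the transcription start, were found for 15 of 18 replication genes (17 windows) and 22 of 27 mitosis genes (23 windows). They were searched on both strands for the CHR element (TTTGAA or its variant TTCGAA), the CCAAT box (CCAAT) and E2F sites (TTCGCGC and its variants TTGGCGC and also TTCCCGC and finally TTGCCGC); copies that overlap were counted apart. A CHR element was in 82.6% of mitosis windows and 11.8% of replication windows, and in 19.2% of all 32851 windows. A CCAAT box was in 91.3% of mitosis and 64.7% of replication windows, and in 37.4% of all windows. An E2F site was in 17.4% of mitosis and 64.7% of replication windows, and in 9.57% of all windows. Mki67, which did not separate the tissues, held 2 CHR elements and 3 CCAAT boxes in its window, while Birc5, with the largest difference, held no copy of these letters. A match describes letters in the window and is no measurement of binding. Windows of 3 mitosis genes with wide tissue gaps and of 2 replication genes show the 2 layouts, each on its gene's strand with the motifs in capitals:
Kif23: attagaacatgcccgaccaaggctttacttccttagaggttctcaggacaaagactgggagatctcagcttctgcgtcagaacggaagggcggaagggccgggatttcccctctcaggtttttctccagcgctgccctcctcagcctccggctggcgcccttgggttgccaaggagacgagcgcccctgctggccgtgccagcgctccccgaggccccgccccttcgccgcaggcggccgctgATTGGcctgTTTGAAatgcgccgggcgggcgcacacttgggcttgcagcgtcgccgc
Ube2c: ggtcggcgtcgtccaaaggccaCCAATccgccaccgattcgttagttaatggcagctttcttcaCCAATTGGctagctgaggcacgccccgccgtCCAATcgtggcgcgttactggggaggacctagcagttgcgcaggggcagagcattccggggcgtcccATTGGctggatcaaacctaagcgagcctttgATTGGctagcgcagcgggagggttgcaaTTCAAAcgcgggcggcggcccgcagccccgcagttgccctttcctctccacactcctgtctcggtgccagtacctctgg
Ccnb2: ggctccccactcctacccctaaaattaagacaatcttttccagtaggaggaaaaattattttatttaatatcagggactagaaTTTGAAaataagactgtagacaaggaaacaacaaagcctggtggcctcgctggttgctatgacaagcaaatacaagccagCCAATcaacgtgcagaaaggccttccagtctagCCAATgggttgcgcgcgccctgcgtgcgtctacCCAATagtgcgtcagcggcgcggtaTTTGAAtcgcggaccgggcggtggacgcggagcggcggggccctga
Rrm2: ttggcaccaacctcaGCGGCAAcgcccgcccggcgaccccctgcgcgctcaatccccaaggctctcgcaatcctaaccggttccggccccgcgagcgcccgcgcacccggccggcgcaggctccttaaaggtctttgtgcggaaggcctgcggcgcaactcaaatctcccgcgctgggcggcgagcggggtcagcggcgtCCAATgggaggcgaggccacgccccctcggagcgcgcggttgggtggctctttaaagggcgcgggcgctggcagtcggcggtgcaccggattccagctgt
Mcm5: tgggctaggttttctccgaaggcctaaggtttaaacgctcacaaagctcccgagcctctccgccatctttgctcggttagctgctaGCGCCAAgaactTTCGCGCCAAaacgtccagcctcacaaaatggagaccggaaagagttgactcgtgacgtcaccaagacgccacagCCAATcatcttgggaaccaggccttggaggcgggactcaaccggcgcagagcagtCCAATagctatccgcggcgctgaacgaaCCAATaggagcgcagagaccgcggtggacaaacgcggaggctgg

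The windows lie at chr9:61946750-61947049 on the minus strand (Kif23), chr2:164769679-164769978 on the plus strand (Ube2c), chr9:70421505-70421804 on the minus strand (Ccnb2), chr12:24708004-24708303 on the plus strand (Rrm2) and chr8:75109259-75109558 on the plus strand (Mcm5). Counting from the start site, the CHR element of Kif23 began at base 2, after a CCAAT box in reverse orientation 7 bases before the start. Ube2c held its CHR element 29 bases before the start, also in reverse, behind 6 CCAAT boxes, of which 1 pair overlaps in the letters CCAATTGG. Ccnb2 held 3 CCAAT boxes at 87, 54 and 21 bases before the start and a CHR element at base 4, with a further CHR element at 167 bases before the start. The Mcm5 window held 3 E2F matches, at 164, 152 and 149 bases before the start, the last 2 overlapping, and Rrm2 held 1, at 235 bases before the start; neither held a CHR element.

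The remaining comparisons set the transfer states against each other. Across both tissues limma called no member and no gene at all at an adjusted p-value of 0.05 or less for naive against un-injected, Treg against un-injected or naive against Treg (0.0% of 10818 genes each); at an unadjusted p-value of 0.05 or less, 0, 1 and 0 members passed, against 7.26%, 4.7% and 3.42% of all genes. The 1 was Tyms, with a difference of -1.04 ± 0.30 between Treg and un-injected (SE of the model, adjusted p in limma 0.938). Single libraries moved these counts: without the un-injected spleen library 7 members passed for naive against un-injected (21.7% of all genes) and 6 for Treg against un-injected (13.8%), without either naive library 2 passed for Treg against un-injected (7.33% and 7.34%), without the naive spleen library 1 passed for naive against Treg (15.0%), and without the Treg spleen library 0 passed for Treg against un-injected (1.19%). Within a tissue 2 single libraries are compared, with no test, as the log2 ratio of FPKM + 0.5.

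In lymph node most cell cycle genes stood higher after either transfer. In the naive against the un-injected library the median log2 ratio was 0.30 over the replication and 0.72 over the mitosis members, against -0.00 over all genes. Of the 44 members, 11 were at least 2-fold higher (16.9% of all genes) and 0 at least 2-fold lower (16.6%), so the count of higher members is not far above the background. The ratios were 2.59 for Rrm2, 2.21 for Kif23 and 1.44 for Bub1b on that scale, and Mcm4 had 22.4 FPKM after naive cells and 8.10 FPKM without transfer. In the Treg against the un-injected library the medians were 0.51 over the replication and 0.97 over the mitosis members, against -0.02 over all genes, with 14 members at least 2-fold higher (11.4% of all genes) and 1, Tyms, at least 2-fold lower (6.91%). Ccnb2 had 6.62 FPKM after Treg and 1.62 FPKM without transfer, and Top2a 6.93 FPKM after Treg and 2.38 FPKM without transfer. Without the genes listed at 0 in the un-injected library, 7 of 39 members were at least 2-fold higher after naive cells (15.9% of all genes) and 10 of 39 after Treg (10.2%), and the mitosis medians were 0.56 and 0.91. Both comparisons share the un-injected library. It had the lowest sum of dendritic cell markers and the highest sum of migratory markers in lymph node. Most of the dendritic cell sum was Cd74 and H2-Ab1, which were lowest there, as was Itgax. Zbtb46 went the other way, with 17.1 (naive), 30.8 (Treg) and 49.8 FPKM (un-injected). Flt3 had 56.6 (naive), 204 (Treg) and 183 FPKM (un-injected). The un-injected library was the lowest lymph node library for 31 of 44 members, against 36.2% of all genes. Other markers of lymph node differed along with it. The 6 monocyte markers summed to 1753 (naive), 209 (Treg) and 34.9 FPKM (un-injected), and the 6 precursor markers to 1156 (naive), 90.4 (Treg) and 17.9 FPKM (un-injected), with Kit as given above; both lists hold Ly6c2. None of their markers was at 0, and the part of any of these cells in the result was not tested. With library totals in place of the deposited scale, which moves the median of all genes by 0.27, 25 members were at least 2-fold apart between Treg and un-injected, higher and lower together, and with 1 added in place of 0.5 there were 9, against 15.

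In spleen the naive and un-injected libraries were close and the Treg library stood below both. For naive against un-injected the medians were -0.04 over the replication and -0.05 over the mitosis members, against -0.04 over all genes, and Plk1 alone was at least 2-fold apart, lower after naive cells (6.01% of all genes were lower, 4.5% higher). With library totals these medians turn to 0.35 and 0.32, but that scaling moves the median of all genes by 0.35 as well. For Treg against un-injected the medians were -0.83 over the replication and -0.77 over the mitosis members, against -0.04 over all genes; 41 of 44 members had a ratio below 0 (52.2% of all genes), 8 were at least 2-fold lower (5.87%) and 0 at least 2-fold higher (4.51%). Cdk1 had 10.6 FPKM after Treg and 34.6 FPKM without transfer, Ube2c had 9.06 FPKM after Treg and 28.6 FPKM without transfer, and Uhrf1 had 7.89 FPKM after Treg and 18.5 FPKM without transfer. Ccne1 was the one gene among replication members on the other side, with 4.04 FPKM after Treg and 2.68 FPKM without transfer, and Mki67 and Aurkb were the mitosis members above 0, by 0.06 and 0.05. The Treg library was the lowest of the 3 spleen libraries for 38 of 44 members, against 33.1% of all genes. With library totals 4 members in place of 8 were at least 2-fold apart.

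Marker sums of the spleen libraries, beside these values, also differed. Neutrophil markers summed to 24.0 (naive), 6.15 (Treg) and 841 FPKM (un-injected), with 5, 5 and 1 of 10 listed at 0, and the erythroid sums are given above. The 6 precursor markers summed to 91.3 (naive), 90.04 (Treg) and 134 FPKM (un-injected). The part of any of these cells in the spleen values was not tested.

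Naive and Treg libraries compared directly gave opposite medians in the tissues. In lymph node the medians were -0.13 over the replication and -0.29 over the mitosis members, against -0.02 over all genes, with 1 member at least 2-fold higher (9.3% of all genes) and 5 at least 2-fold lower (11.4%). Bub1b was the higher one, and Tk1, with 4.61 FPKM after naive cells and 9.80 FPKM after Treg, was one of the lower, beside Ccnb2, Cdc20, Ube2c and Ttk; Ttk is listed at 0 after naive cells, and 4 members were lower without it (10.6% of all genes without those at 0). In spleen the medians were 0.70 and 0.72, against 0.00 over all genes, with 7 members at least 2-fold higher (4.12% of all genes) and 1, Plk1, at least 2-fold lower (3.71%). Nusap1 had 8.98 FPKM after naive cells and 3.42 FPKM after Treg, Bub1 had 6.11 FPKM after naive cells and 2.27 FPKM after Treg, and Cdc6 had 5.65 FPKM after naive cells and 2.39 FPKM after Treg. With 1 added in place of 0.5 there were 3 members at least 2-fold apart in lymph node, against 6, and 5 in spleen, against 8; with 0.1 there were 10 in lymph node.

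**Figure D3:**
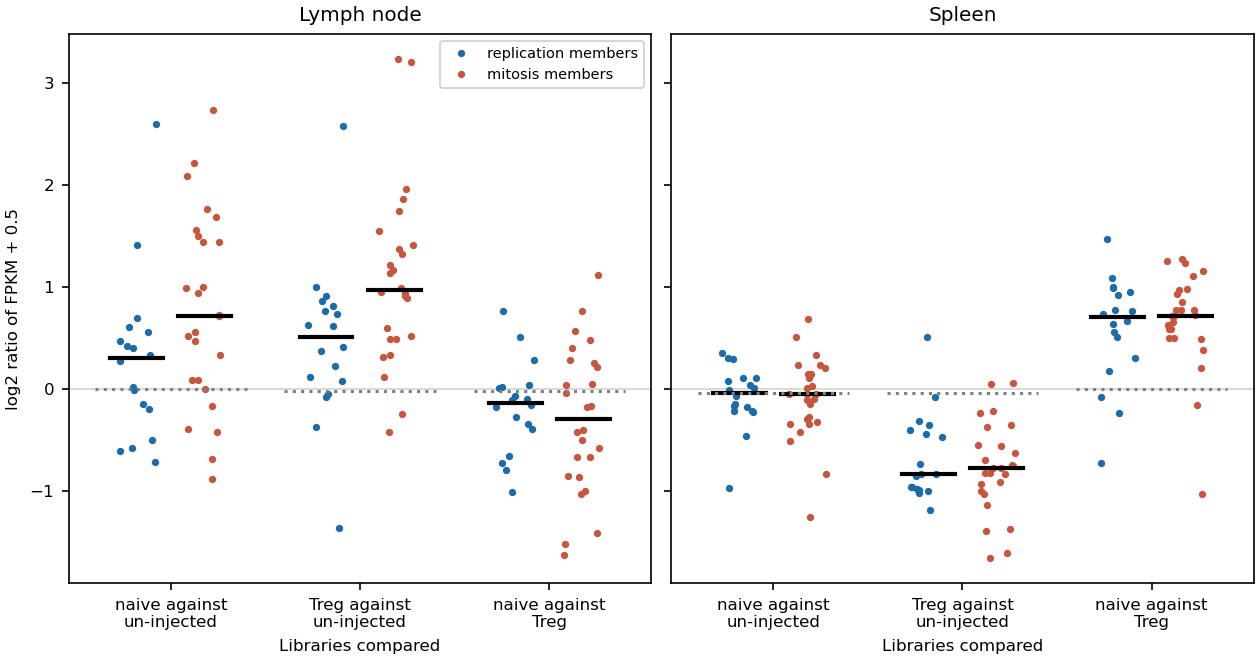
Log2 ratio of FPKM + 0.5 between 2 libraries of 1 tissue (vertical axis) for the 44 members past the filter, 1 point per gene, in lymph node (left) and spleen (right), for the 3 pairs of transfer states; black bars are the medians of each class and dotted lines the median of all genes. Treg against un-injected has medians of 0.51 and 0.97 in lymph node and of -0.83 and -0.77 in spleen, for replication and mitosis genes.

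The tissues were closest after Treg. The median log2 ratio of lymph node to spleen was -1.29 over the replication and -1.94 over the mitosis members after naive cells, -0.49 and -0.77 after Treg, and -1.53 and -2.48 in un-injected mice, against 0.04, 0.00 and -0.03 over all genes. At least 2-fold lower in lymph node were 34 of 44 members after naive cells (8.94% of all genes), 10 after Treg (8.37%) and 36 in un-injected mice (20.9%). Without genes listed at 0 the counts were 33 of 43 after naive cells (8.21% of all genes) and 31 of 39 in un-injected mice (19.8%), with mitosis medians of -1.92 and -2.30. Comparing Treg with un-injected mice, 13 of 18 replication members and 22 of 27 mitosis members had a ratio above 0 in lymph node and below 0 in spleen, against 23.7% of all genes. Rrm2 was 2-fold or more apart in both, with 4.52 FPKM after Treg and 0.343 FPKM without transfer in lymph node, and with 12.1 FPKM after Treg and 24.9 FPKM without transfer in spleen. Whether the tissues differ in their response cannot be tested with 1 library per group.

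In the authors' deposited table for each pair of states within a tissue, no member carried their mark, which asks for 2-fold and a p-value of 0.01 or less. They had tested 16 to 19 of the 45 members in lymph node and 34 to 36 in spleen. The lowest p-values of a member in the authors' deposited tables were 0.115 for naive against un-injected, 0.130 for Treg against un-injected and 0.203 for Treg against naive in lymph node, and 0.349, 0.137 and 0.127 for the same pairs in spleen. Of the loci tested there, the authors' deposited tables mark 3.46%, 0.717% and 1.18% in lymph node and 0.104%, 0.155% and 0.0779% in spleen.

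Other genes of the same processes, which are not among the 45, gave the same direction in the median, with smaller gaps. Of 60 further replication genes 58 passed the filter; none was called in limma, 20 were lower in lymph node at an unadjusted p-value of 0.05 or less, where 12.1% of all genes were, and the median difference was -0.58. Of 67 further mitosis genes 61 passed, 14 of them through spleen alone, where a lower lymph node level is partly set by the filter; none was called, 37 were lower at that unadjusted level, and the median was -1.01. All lymph node libraries lay below all spleen libraries for 41.4% of the replication and 72.1% of the mitosis genes that passed, against 16.4% of all genes. Among genes that reached 1 FPKM in a library of each tissue the shares were 39.3% of 56 replication and 70.2% of 47 mitosis genes, against 16.1% of all genes. The model difference was below 0 for 50 of 58 replication and 56 of 61 mitosis genes. After Treg the median log2 ratio of lymph node to spleen was only -0.09 over these replication genes, with 26 above 0. Over these mitosis genes it was -0.67, with 15 above 0. Hmgb2 (a chromatin protein of dividing cells, the highest of the further mitosis genes) had 74.1 (naive), 75.9 (Treg) and 78.0 FPKM (un-injected) in lymph node, against 220 (naive), 167 (Treg) and 225 FPKM (un-injected) in spleen. Dut (which clears dUTP) had 13.3 (naive), 12.6 (Treg) and 5.30 FPKM (un-injected) in lymph node, against 42.9 (naive), 20.4 (Treg) and 43.8 FPKM (un-injected) in spleen. Both separated the tissues. Gins3 (a partner of Gins2) had 3.41 (naive), 12.1 (Treg) and 19.8 FPKM (un-injected) in lymph node, against 5.59 (naive), 2.69 (Treg) and 1.70 FPKM (un-injected) in spleen. Exo1 (an exonuclease of DNA repair) had 0.0551 (naive), 0 (Treg) and 7.14 FPKM (un-injected) in lymph node, against 1.36 (naive), 2.05 (Treg) and 0.590 FPKM (un-injected) in spleen. Both had their highest level in the un-injected lymph node library, where most members had their lowest.

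Cell cycle inhibitors and quiescence genes were higher in lymph node in several cases, opposite to the cell cycle genes. Of 17 genes listed 16 passed the filter. Of these, 7 had all lymph node libraries above all spleen libraries (43.8%, against 16.9% of all genes). Cdkn2b, among the 7, passed the filter through lymph node alone, so its higher lymph node level is partly set by the filter. For 1, Trp53, all lymph node libraries lay below all spleen libraries (6.25%, against 16.4% of all genes). In limma 1 of the 16, Cdkn1a, was called (6.25%, against 0.684% of all genes). Cdkn1a (the CDK inhibitor p21) had 490 (naive), 307 (Treg) and 549 FPKM (un-injected) in lymph node, against 132 (naive), 101 (Treg) and 119 FPKM (un-injected) in spleen. The groups did not overlap and the difference was 1.89 ± 0.22 (SE, adjusted p in limma 0.0473). The call was lost, with adjusted p-values of 0.0536 to 0.132, with a pseudocount of 0.1, without the filter, with library totals, without the intensity trend and with 1 FPKM asked of both tissues, and at 0.303 and 0.311 without the Treg library of lymph node or of spleen. Ccng2 (cyclin G2, linked to cell cycle arrest) had 37.4 (naive), 58.9 (Treg) and 112 FPKM (un-injected) in lymph node, against 12.4 (naive), 16.3 (Treg) and 12.4 FPKM (un-injected) in spleen. Cdkn2b (the CDK4 and CDK6 inhibitor p15) had 2.82 (naive), 8.82 (Treg) and 28.8 FPKM (un-injected) in lymph node, against 0.803 (naive), 0.742 (Treg) and 0.310 FPKM (un-injected) in spleen. Both were above every spleen library in each lymph node library and highest without transfer, where most cell cycle genes were lowest. Gadd45b (a growth arrest and stress gene) had 149 (naive), 379 (Treg) and 1018 FPKM (un-injected) in lymph node, against 115 (naive), 109 (Treg) and 135 FPKM (un-injected) in spleen. Cdkn2c (the inhibitor p18) had 1.99 (naive), 6.67 (Treg) and 19.5 FPKM (un-injected) in lymph node, against 6.31 (naive), 9.24 (Treg) and 9.24 FPKM (un-injected) in spleen. Gadd45b separated the tissues, and Cdkn2c did not. Btg2 (an antiproliferative gene) was higher in spleen for the same transfer state, with 386 (naive), 425 (Treg) and 356 FPKM (un-injected) in lymph node, against 537 (naive), 683 (Treg) and 407 FPKM (un-injected) in spleen. Across the lymph node libraries the sum of the migratory markers was lowest after naive cells and highest without transfer. Ccng2, Cdkn2b, Cdkn2c and Gadd45b had the same order, as did Cdkn2a, Rb1, Rbl2 and Ccng1. The other genes of the list that passed the filter did not. Cdkn1a, Btg1, Rbl1 and Gadd45a were lowest after Treg, and Cdkn1b, Trp53, Cdkn2d and Btg2 were lowest without transfer. Of the migratory markers, Ccr7, Fscn1 and Ccl22 had the order of their sum. Ccl17 and Cd40 were also highest without transfer but lowest after Treg, at 93.4 and 197 FPKM. The part of migratory cells in these values was not tested.

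**Figure D4:**
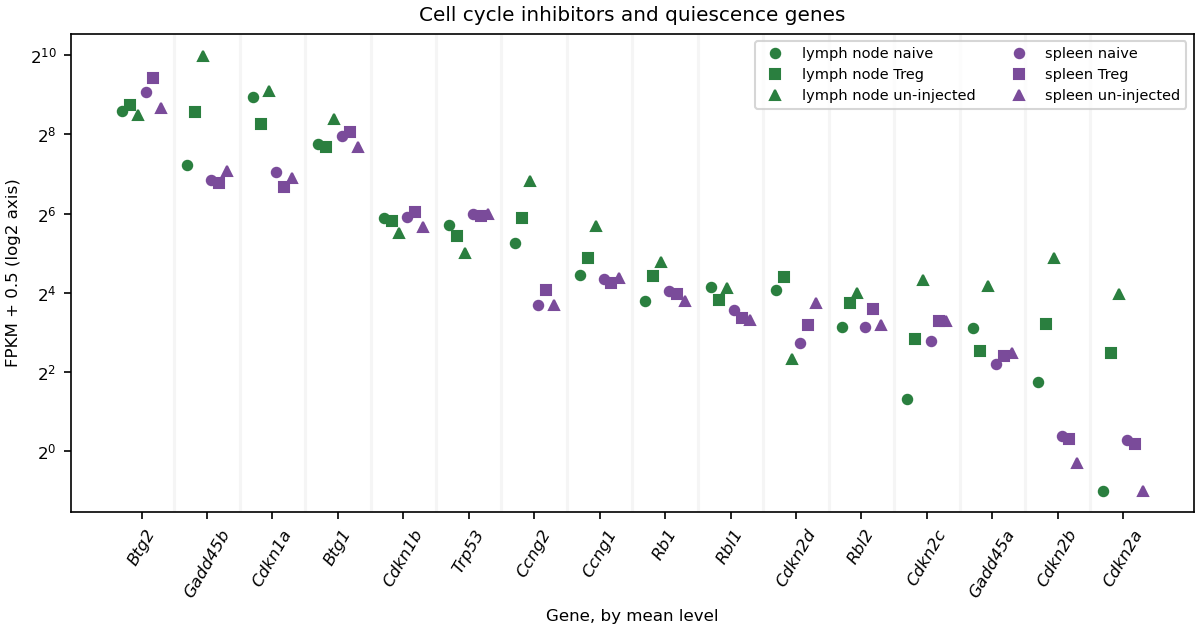
Level of 16 cell cycle inhibitors and quiescence genes in each library (vertical axis, FPKM + 0.5 on a log2 scale), 1 point per library, with lymph node and spleen in separate colours and a symbol for each transfer state, genes ordered by mean level. The 3 lymph node points of Cdkn1a (307 to 549 FPKM) lie above its 3 spleen points (101 to 132 FPKM). Ccng2 shows the same split, as does Cdkn2b, which stayed below 1 FPKM in spleen.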

How the data were processed

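Gene expression was measured in 6 RNA sequencing libraries of sorted dendritic cells, 1 per group, made with an Illumina TruSeq kit from RNA taken up in Trizol, per the labels' protocols. The authors deposited 1 table of the 6 libraries with values treated here as FPKM, that is, as far as the values show, fragments per gene that the authors had scaled for length and library size before depositing them. The header names no unit, so FPKM is inferred from the fractional values and their unequal sums (552580 to 861260 per library). Per the submitters' processing notes the builds were GRCm38.p4 and mm10 and the tools include edgeR 3.16.5 and RSEM, whose roles are not stated. The authors also deposited 6 tables with a p-value per locus for pairs of libraries, per the file headers. The depth is unknown, so no counting interval is given.

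Genes were taken by symbol, the values of 38 symbols with several lines were summed, and a gene was kept at 1 FPKM or more in at least 2 libraries (10818 genes). In R 4.3.3, limma 3.58.1 was fitted to log2(FPKM + 1) with a variance trend over level, as state plus tissue, 2 residual degrees of freedom, Benjamini-Hochberg adjustment over all genes at 0.05; the code was tested on simulated data. Ratios of 2 libraries use FPKM + 0.5 and, like the model, understate the change of low genes. Identifiers and loci were checked against GENCODE M21. The identifiers given for Ccnb1, Aurka, Plk1 and Ube2c did not match, although each locus overlapped the gene of that symbol. Promoters are RefSeq windows. Members named with all values are the 6 with the highest mean in each class, those with the largest ratios at 5 FPKM or more in each pair, and examples of each function; a gene outside these was chosen after its values were seen. The members and lists were chosen with earlier results of these data known. Alternatives were other pseudocounts, filters, scalings and models, and leaving out each library.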

Additional observations from a re-analysis of the deposited data

Results flagged for a closer look

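The median ratios for Treg against un-injected and for naive against Treg had opposite signs in the tissues for both classes of cell cycle genes. For naive against un-injected the spleen medians lay close to the median of all genes. With 1 library per group the difference between tissues was not tested. For Treg against un-injected the replication members had a median log2 ratio of 0.51 (lymph node) and -0.83 (spleen), a gap of 1.34, and the mitosis members one of 0.97 (lymph node) and -0.77 (spleen), a gap of 1.74. For naive against Treg the gaps, lymph node minus spleen, were -0.84 over the replication members (-0.13 in lymph node, 0.70 in spleen) and -1.01 over the mitosis members (-0.29 in lymph node, 0.72 in spleen). For naive against un-injected they were 0.34 over the replication members (0.30 in lymph node, -0.04 in spleen) and 0.76 over the mitosis members (0.72 in lymph node, -0.05 in spleen); the spleen median of all genes was -0.04. Rrm2 was the one member above 0 in every library that was at least 2-fold higher in lymph node and at least 2-fold lower in spleen, for Treg against un-injected, with log2 ratios of 2.57 in lymph node and -1.02 in spleen, a gap of 3.59. The comparisons of naive and of Treg with un-injected mice share the un-injected libraries.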

How the results depend on the processing

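No paired analysis was possible because each group holds 1 library and the labels give no replicate numbers. The count of genes called between lymph node and spleen, 74, was 38 with a pseudocount of 0.1, 0 without the filter, 23 with library totals, 2 without the intensity trend, 311 without transfer state in the model, 2 with 1 FPKM asked of both tissues (chosen after seeing the data) and 0 to 1471 when 1 library was left out; the count of members called, 0, was 5 without transfer state in the model and 0 to 9 when 1 library was left out. Where 1 library of a state is left, it is assumed to vary like the others. Genes called were 0 to 382 for naive against un-injected when 1 library was left out, 0 to 17 for Treg against un-injected and 0 to 104 for naive against Treg, with 2 in each of the last pair without the intensity trend. With a library left out, 3 named members crossed 0 between lymph node and spleen: Gins2 (-0.10 to 0.16), Uhrf1 (-0.97 to 0.082) and Mki67 (-0.60 to 0.13), in each case without either naive library; Gins2 was 0.18 with library totals. Library totals also turned the spleen medians for naive against un-injected to 0.35 (replication) and 0.32 (mitosis). Members at least 2-fold apart for Treg against un-injected were 9 with a pseudocount of 1 and 25 with library totals in lymph node, and 4 with library totals in spleen. For naive against Treg they were 10 with a pseudocount of 0.1 and 3 with 1 in lymph node, and 5 with 1 in spleen. For naive against un-injected in spleen they were 2 with a pseudocount of 0.1 and 2 without the filter. The mitosis median between un-injected lymph node and spleen was -3.19 with a pseudocount of 0.1. Median-ratio factors moved none of these results past its threshold or by over 1.5 times. The deposited values give no depth, so low levels cannot be given a detection limit.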
